A study of Mus musculus with 3530 samples.

Results

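The excitatory neurons described here were picked by 3 genes, Pou3f1, Chst8 and Pdyn, in a survey of individual cells from mouse medial prefrontal cortex, and 212 of 3530 cells were members. A cell counted as excitatory when the summed CPM, or counts scaled to a common library total, of Slc17a7, Neurod2 and Neurod6 exceeded those of Gad1 and Gad2, which held for 2327 cells. Each excitatory cell was then given to whichever of 6 sets of 3 genes had the highest mean z-score of log2(CPM + 1) in it, provided that mean was above 0. The set of Pou3f1, Chst8 and Pdyn won in 212 cells, and the other 2115 excitatory cells are called the other excitatory neurons. Libraries were made from single cells with Smart-seq2, which sequences full-length transcripts without molecular identifiers, and the members held 104260 to 4048175 counts each. All mice were TRAP2;Ai14, a line in which Cre recombinase driven from the Fos locus, once induced, switches on a red fluorescent reporter in cells active at that time. The conditions were Fear-Recall (1342 cells), Fear-Only (841 cells), Context-Only (912 cells) and Homecage (435 cells), with 5 animals each, from a study of contextual fear conditioning. The labels give no age, sex, tamoxifen schedule or recall time, and do not say what separates the conditions beyond those names. The titles mark 1806 cells as sorted "pos" and 779 as "neg", without stating what was gated, while 849 cells carry no gate and 96 are marked as mixed.

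Glutamatergic neurons of the deep cortical layers are commonly divided by where their axons go. Extratelencephalic cells of layer 5 project to the brainstem, thalamus and spinal cord, intratelencephalic cells project within the cortex and striatum, and corticothalamic cells of layer 6 project to the thalamus. Pou3f1 encodes a POU-domain transcription factor, Chst8 a sulfotransferase that acts on N-acetylgalactosamine in glycoproteins, and Pdyn prodynorphin, the precursor of the dynorphin opioid peptides that act on the kappa opioid receptor.

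Of the 3 defining genes, 2 had a promoter window in the RefSeq table (build GRCm38.p6, 250 bases before to 50 after the start), shown here because these genes fix which cells are described. Chst8 lies at chr7:34674468-34812711 on the minus strand, Pdyn at chr2:129686565-129699844 on the minus strand and Pou3f1 at chr4:124656807-124660655 on the plus strand. The windows are chr7:34812662-34812961 for Chst8 and chr2:129699889-129700188 for the upstream start of Pdyn, both on the minus strand. Capitals mark matches, on either strand, to the POU octamer ATGCAAAT, the cAMP response element TGACGTCA, its half-site CGTCA, which lies inside that element, the GC box GGGCGG and the TATA box TATAAA.
Chst8: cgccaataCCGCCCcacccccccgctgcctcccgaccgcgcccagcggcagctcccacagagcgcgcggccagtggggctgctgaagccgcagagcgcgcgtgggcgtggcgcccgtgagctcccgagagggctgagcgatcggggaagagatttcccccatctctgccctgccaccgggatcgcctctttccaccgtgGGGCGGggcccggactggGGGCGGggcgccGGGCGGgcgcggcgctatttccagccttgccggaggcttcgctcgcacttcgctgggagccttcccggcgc
Pdyn: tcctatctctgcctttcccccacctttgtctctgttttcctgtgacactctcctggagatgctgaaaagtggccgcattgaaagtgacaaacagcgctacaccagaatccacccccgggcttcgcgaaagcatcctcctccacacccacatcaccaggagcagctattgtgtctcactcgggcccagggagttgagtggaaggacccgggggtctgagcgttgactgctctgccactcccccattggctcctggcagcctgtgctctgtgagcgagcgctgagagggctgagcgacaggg
The Chst8 window held 4 GC boxes, and the Pdyn window held none of the 5 motifs. Of 32851 promoter windows of the same length, 35.7% held a GC box and 1.74% the octamer.

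The defining genes were found unevenly among the members. Chst8 had reads in 86.8% of the 212 cells, against 22.2% of the other excitatory neurons and 0.582% of the 1203 cells not called excitatory. Pou3f1 had reads in 63.7% of members, against 6.71% of the other excitatory neurons. Pdyn had reads in 48.1% of members, against 2.51% of the other excitatory neurons and 3.08% of the cells not called excitatory. All of these values chose the cells and are given as a description. All 3 genes were found together in 66 members, 2 of them in 77 and 1 alone in 69, of which Chst8 alone made up 49. The lead of the winning score over the next had a median of 0.779 and reached 4.11, but 27 members led by less than 0.1, and 21 other excitatory neurons fell short of this set by less than 0.1. The next closest set was Tshz2, Lypd1 and Il11ra1 for 67 members, Wfs1, Calb1 and Cux2 for 56 and Rorb, Dkkl1 and Coch for 43. Members had a median of 756981 counts and 7879.5 genes per cell, and the other excitatory neurons 827463 counts and 7207 genes.

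Genes known from extratelencephalic cells of layer 5 were higher in the members than in any other excitatory type for 9 of the 12 measured. The same held for 2 of 12 intratelencephalic genes of layer 5, and the share over all genes was not counted. Among the 9, Stac, Slco2a1, Hpgd and Fam84b were low, at 1.28, 1.32, 2.37 and 3.46 CPM in members. Bcl6, a transcriptional repressor, averaged 12.6 ± 10.4 CPM in members and 1.05 ± 1.597 CPM in the other excitatory neurons (SD, n = 12 animals with at least 5 members). Parm1, a mucin-like membrane protein, averaged 126 ± 66.5 CPM in members and 35.8 ± 8.72 CPM in the others. Npr3, the natriuretic peptide clearance receptor, averaged 6.70 ± 4.75 CPM in members and 0.948 ± 0.764 CPM in the others. Fezf2 and Bcl11b were not highest in the members. Fezf2, a regulator of subcerebral projection fate, averaged 210.7 ± 81.6 CPM in members, below the 298.3 ± 72.6 CPM of the cells of the Tshz2, Lypd1 and Il11ra1 type. Bcl11b (CTIP2) averaged 72.3 ± 58.8 CPM in members, 90.1 ± 26.8 CPM in the Tshz2, Lypd1 and Il11ra1 type and 69.1 ± 26.7 CPM in the Rprm, Foxp2 and Ighm type, gaps smaller than the spread between animals.

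**Figure D1:**
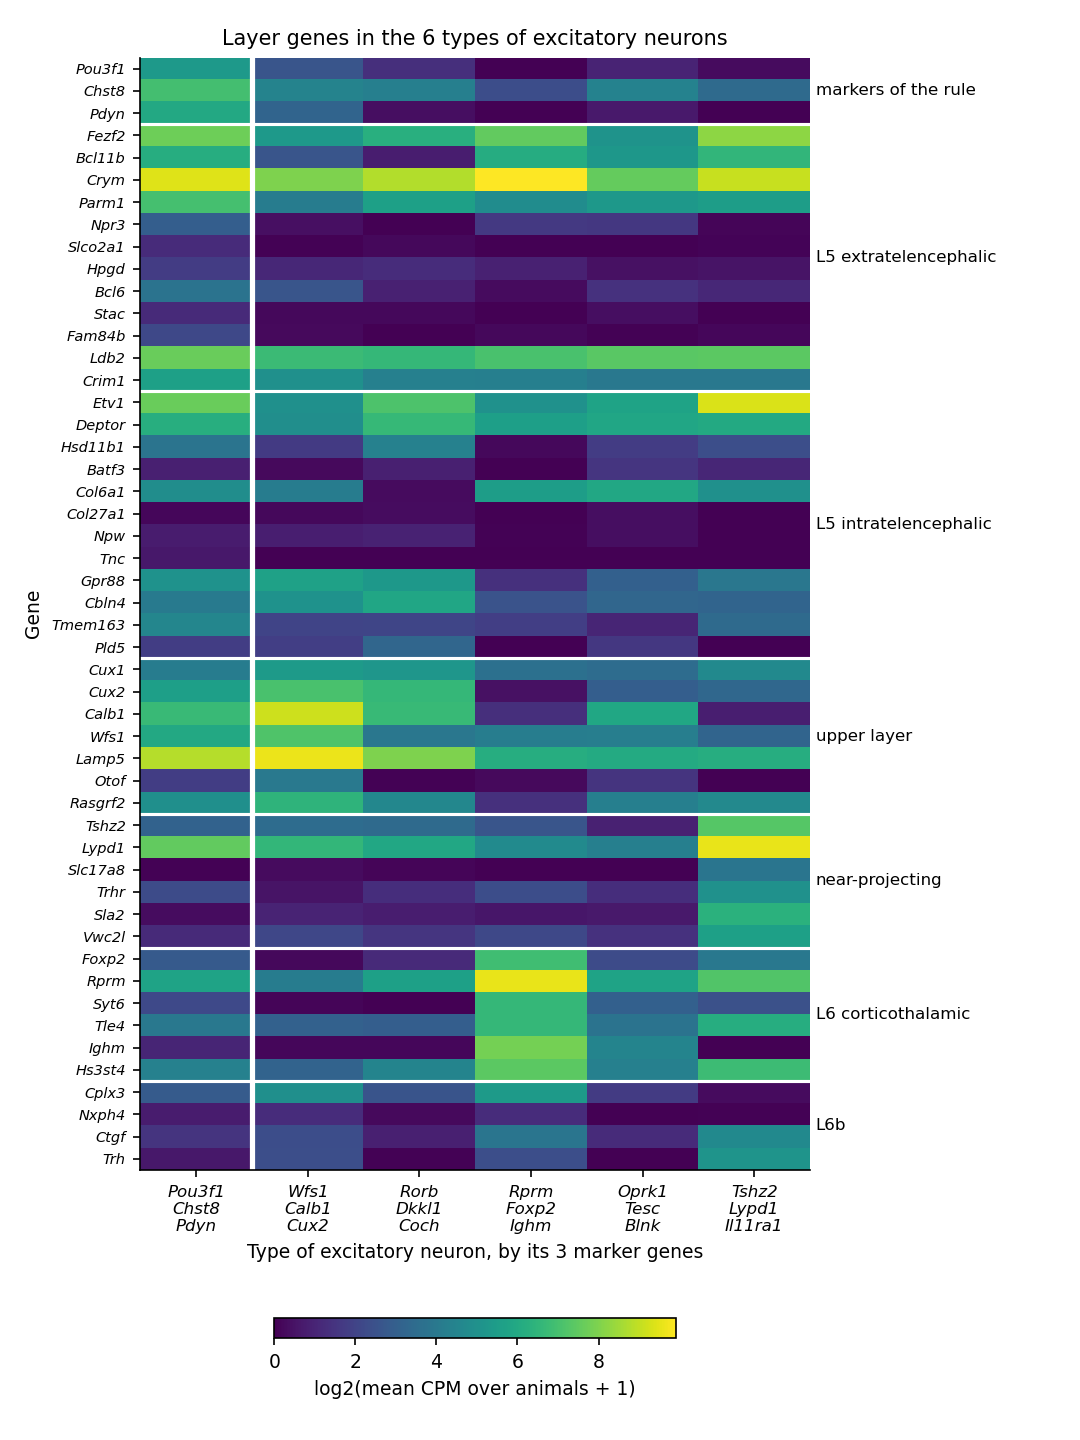
Mean level of layer genes (rows, grouped by list) in the 6 types of excitatory neurons (columns, the Pou3f1 Chst8 Pdyn type at the left), as log2 of the mean CPM over animals plus 1. The left column is brightest of its row for 9 of the 12 extratelencephalic genes, dark for Slc17a8, Sla2 and Trh, and shares Lamp5 with the Wfs1 Calb1 Cux2 type.

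The mean level of extratelencephalic and of upper-layer genes rose with the number of defining genes found in a member. This split uses the genes that chose the cells and pools cells over animals, so it is a description without a test. The mean log2(CPM + 1) over the 12 extratelencephalic genes was 3.999 ± 1.46 in the 66 members with all 3 defining genes, 2.98 ± 1.48 in the 77 members with 2 and 2.40 ± 1.075 in the 69 members with 1 (SD over cells). The other types stood between 1.51 and 2.73 on the same scale, so the members with 1 defining gene lay below the 2.73 ± 0.586 of the Rprm, Foxp2 and Ighm cells. Over 4 upper-layer genes the mean was 3.58 ± 1.19 in members with all 3 defining genes, 3.27 ± 1.51 in those with 2 and 2.30 ± 1.44 in those with 1, and the other types stood between 0.994 and 4.47, the Wfs1, Calb1 and Cux2 cells highest. The order was therefore not particular to genes of the layer in the label. Over 12 intratelencephalic genes of layer 5 it was absent, with means of 1.35, 1.44 and 1.37 for 3, 2 and 1 defining genes. Among members with 1 defining gene the upper-layer mean also varied with which gene it was. It was 3.54 with Pou3f1 alone (13 cells), 2.13 with Chst8 alone (49 cells) and 1.17 with Pdyn alone (7 cells). Bcl6 had reads in 83.3% of members with all 3 defining genes, in 46.8% of those with 2 and in 11.6% of those with 1. Igfbp4, a binding protein of insulin-like growth factors, followed the same order with 87.9%, 49.4% and 24.6% of cells. Lamp5 did too, with 98.5%, 87.01% and 66.7%, although it is known for upper-layer cells. Lamp5 is 1 of the 4 upper-layer genes above, and the other 3 had a median log2 ratio below 0 against the other excitatory neurons. Members with all 3 defining genes also had more genes per cell, with a median of 8353.5 against 7848 in those with 2 and 7106 in those with 1, and the part of this in the gradient was not tested. The position of a cell in the cortex was not measured.

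Across all genes the members were described against the other excitatory neurons of the same animal, with no test, because this contrast is the one that chose them. Of 5506 genes at 30 CPM or more, 20 (0.363%) were at least 2-fold higher by the median over 12 animals and higher in at least 11 of them, and 45 (0.817%) were lower by the same rule. Fam19a1 (Tafa1), a secreted neurokine-like protein, ranged from 14.9 to 138.1 CPM in members, with a median of 102 CPM, and from 13.2 to 37.1 CPM in the other excitatory neurons, with a median of 20.4 CPM. It was higher in members of all 12 animals, with a median log2 ratio of 2.08. Lamp5, a membrane protein of the lysosomal family, ranged from 293.1 to 636.5 CPM in members and from 31.4 to 278 CPM in the others. Igfbp4 had a median log2 ratio of 2.07, S100b, a calcium-binding protein better known from astrocytes, 2.06, Parm1 1.86 and Fam84a 1.79. Stxbp6 (amisyn, a SNARE-binding protein), Rab3c (a synaptic vesicle GTPase), Syt17 (a synaptotagmin), Crim1, Pex5l, Timp2 (a metalloproteinase inhibitor) and Ndst3 (a heparan sulfate sulfotransferase) lay between 1.14 and 1.34.

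The lower genes were led by Sema5a and Myl4. Sema5a, a semaphorin, ranged from 0 to 25.2 CPM in members and from 19.5 to 51.8 CPM in the other excitatory neurons, with a median log2 ratio of -3.83. Myl4, a myosin light chain, ranged from 4.69 to 35.01 CPM in members and from 37.1 to 214.5 CPM in the others. Slc17a6, the vesicular glutamate transporter VGLUT2, averaged 9.58 ± 11.1 CPM in members and 34.1 ± 22.4 CPM in the others, with a median log2 ratio of -2.40. Zcchc12, Wscd1, Rcan2 (a calcineurin regulator) and Neto2 (a kainate receptor auxiliary subunit) lay between -2.82 and -1.84. So did Tnnc1 (troponin C), Rnd3 and Hs3st4 (a heparan sulfate sulfotransferase of layer 6). These ratios are against the other types as a pool, and by mean CPM the members were the lowest of the 6 types for Wscd1 only. With rank 1 the highest, they ranked 5 for Myl4, Rcan2, Neto2 and Rnd3. Their rank was 4 for Sema5a, Slc17a6, Tnnc1 and Hs3st4 and 3 for Zcchc12.

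**Figure D2:**
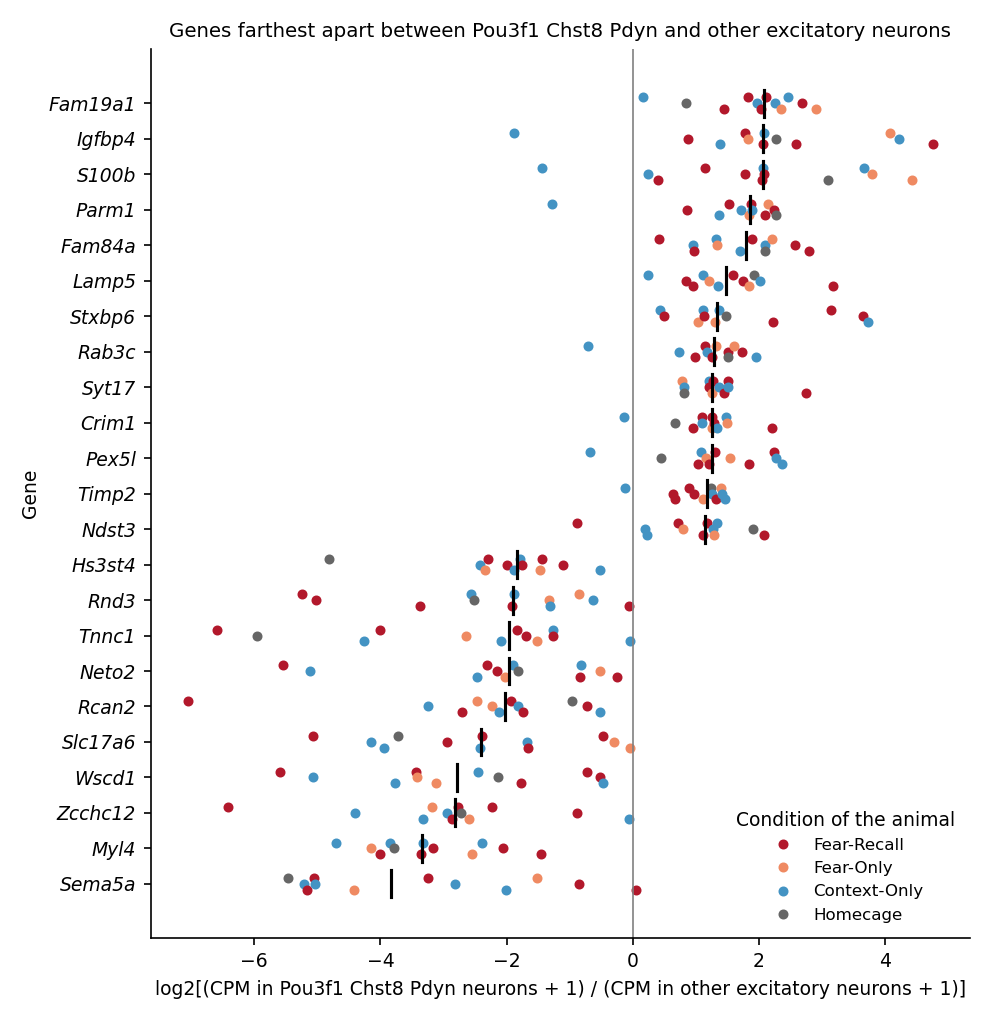
log2 ratio of CPM (each plus 1) in Pou3f1 Chst8 Pdyn neurons over the other excitatory neurons of the same animal, 1 point per animal and gene, coloured by condition, with the median as a bar. Fam19a1 and Lamp5 are right of 0 in all 12 animals, and Context-Only animal 2 lies left of 0 for Igfbp4, S100b, Parm1 and Rab3c.

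A single animal stood apart in these ratios. Context-Only animal 2, with 7 members, was on the other side of 0 for Igfbp4, S100b, Parm1, Rab3c, Crim1, Pex5l and Timp2. Its members had reads of Pou3f1 in 3 cells, Chst8 in 5 and Pdyn in 2, and a summed level of oligodendrocyte markers of 954 CPM, the highest among the 12 animals. Without that animal, 25 genes were higher and 47 lower by the same rule.

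Gene groups are given by their counts, over genes the cell rule did not use and without a filter on level. The same call held for 0.164% (higher) and 1.37% (lower) of 23205 genes with a count, of which 22.5% had a median above 0 and 61.004% below. Of 12 extratelencephalic genes, 11 had a median above 0 and 4 were called higher (Bcl6, Crim1, Npr3 and Parm1), with a list median of 0.47. Of 12 intratelencephalic genes of layer 5, 2 were above 0 and none was called, although Tmem163, a zinc transporter, averaged 22.2 ± 17.3 CPM in members and 5.78 ± 3.73 CPM in the others. The lists of near-projecting cells (3 of 4), layer 6 corticothalamic cells (3 of 3) and layer 6b cells (2 of 4) held genes called lower, among them Slc17a8, Syt6, Tle4 and Trh. All 4 neurofilament genes had a median above 0 with none called, and Nefh, the heavy subunit, averaged 21.9 ± 15.5 CPM in members and 10.8 ± 3.75 CPM in the others. Of 19 channel genes that shape firing, 7 were above 0 and none was called. Kcnn2, the small-conductance calcium-activated potassium channel SK2, averaged 38.8 ± 21.9 CPM in members and 17.4 ± 8.16 CPM in the others and was higher in 10 of 12.

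Several receptors for neuromodulators were lower in the members than in the other excitatory neurons as a pool. Of 20 such genes 8 were called, namely Adra1b, Adra2a, Chrm2, Chrna4, Chrna5, Drd1, Htr2a and Htr2c. By mean CPM the members were the lowest of the 6 types for Adra2a and Htr2a only. With rank 1 the highest, they ranked 5 for Adra1b, Chrm2 and Drd1, 4 for Htr2c and 3 for Chrna4 and Chrna5. Drd1, the D1 dopamine receptor, averaged 0.953 ± 1.32 CPM in members and 7.32 ± 4.31 CPM in the others, and lay below the others in all 12 animals. Htr2c, a serotonin receptor, averaged 1.34 ± 2.51 CPM in members and 14.1 ± 7.92 CPM in the others. Chrm1, the M1 muscarinic receptor, averaged 198 ± 71.3 CPM in members and 162 ± 55.3 CPM in the others and was not called. Of 34 immediate early genes, which neurons switch on shortly after activity, 28 had a median below 0, and 2 were called lower: Dusp5, a MAP kinase phosphatase, and Ptgs2, the inducible cyclooxygenase. Fos averaged 191 ± 128 CPM in members and 262 ± 104.2 CPM in the others, and Arc 234 ± 149 CPM in members and 369 ± 246 CPM in the others. These gaps are smaller than the SD between animals, which does not measure a gap within the same animals. By mean CPM over the 6 types the members ranked 6 for Arc, 5 for Fos and 2 for Btg2 and Vgf. None of the 34 genes was highest in the members.

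The cell rule used Pdyn and Oprk1, and 10 other opioid genes were measured. All 10 had a median log2 ratio below 0, as did 61.004% of all genes with a count. Pomc, the precursor of beta-endorphin, was called lower, as were 1.37% of all genes with a count. Pomc nevertheless had reads in 20.6% of members with Pdyn reads and 19.1% of those without, against 16.8% of the other excitatory neurons. The processing enzyme Pcsk2, carboxypeptidase Cpe and the Pcsk2 chaperone Scg5 had reads in every member. They also had reads in 99.3, 99.8 and 99.3% of the other excitatory neurons. Oprl1, the nociceptin receptor, averaged 32.6 ± 20.2 CPM in members and 37.4 ± 18.8 CPM in the others. Penk, the enkephalin precursor, had reads in 28.4% of 102 members with Pdyn reads (exact 95% interval 19.9 to 38.2%) and in 5.45% of 110 members without (2.03 to 11.5%), beside 10.7% of the other excitatory neurons. Over the 10 animals with at least 3 members on each side, the share with Penk was higher in cells with Pdyn in 9 and equal in 1. Members with Pdyn had a median of 8224 genes per cell and those without 7346, and the part of this in the difference was not tested. Intervals here cover counting error only, and cells of 1 animal are not independent.

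The share of members among excitatory cells gave no difference between gates beyond its spread. Over the 8 animals with at least 10 excitatory cells in both gates, the share was 9.33 ± 3.13% in the pos gate and 8.97 ± 2.67% in the neg gate (SD, n = 8). The pos share was higher in 4 of 8 animals, with a mean difference of 0.365 percentage points and a two-sided exact sign-flip permutation p of 0.719. The reporter itself separated the gates, with reads in 90.6% of 106 members from the pos gate and in 13.2% of 53 members from the neg gate.

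No difference in the share between conditions passed the test. With all gates together, members were 22.5, 10.4, 11.8, 5.88 and 7.50% of excitatory cells in the 5 Fear-Recall animals, against 5.56, 6.17, 11.4, 3.12 and 4.65% in the 5 Fear-Only animals. In the 5 Context-Only animals the shares were 5.26, 7.74, 8.94, 1.67 and 8.08%, and in 4 Homecage animals 10.3, 0, 8.33 and 4.65%. Fear-Recall animal 1 was the highest of all 19, its 6 plates ranging from 4.55 to 36.4%, and the other animals of that condition overlapped with the rest. The mean was 11.6 ± 6.51% in Fear-Recall, against 6.18 ± 3.13% in Fear-Only and 6.34 ± 2.95% in Context-Only (SD, n = 5 each). Two-sided exact permutation tests gave p = 0.0873 for Fear-Recall against Fear-Only and p = 0.111 for Fear-Recall against Context-Only, each 0.167 after Benjamini-Hochberg adjustment over 3 comparisons. Without Fear-Recall animal 1 the differences were 2.71 percentage points over Fear-Only (exact permutation p = 0.175) and 2.55 over Context-Only (exact permutation p = 0.230). In the pos gate alone the mean was 9.63 ± 3.33% in 3 Fear-Recall animals, against 9.12 ± 5.11% in 2 Fear-Only and 7.08 ± 2.05% in 3 Context-Only animals, where no exact permutation p was under 0.3 and none could go below 0.1.

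**Figure D3:**
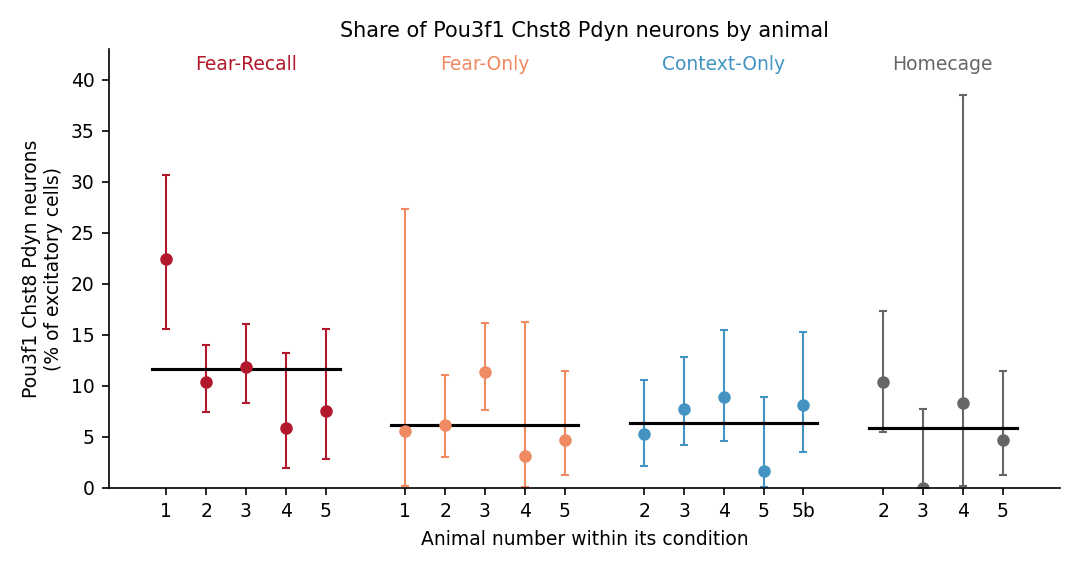
Share of Pou3f1 Chst8 Pdyn neurons among excitatory cells, 1 point per animal by condition, with exact 95% binomial intervals and the mean of each condition as a bar. Fear-Recall animal 1 stands at 22.5%, and the other animals lie between 0 and 11.8%.

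Reporter reads were somewhat more frequent in members than in the other excitatory neurons of the pos gate. The share of cells with a reporter read was 86.7 ± 13.7% in members and 78.0 ± 19.7% in the others (SD, n = 8 animals), a mean difference of 8.70 percentage points. Members were higher in 7 of 8 animals, from 100 against 96.3% in Fear-Recall animal 3 to 60.0 against 36.1% in Homecage animal 2, and lower in Fear-Recall animal 4 with 80% against 82.5%. The two-sided exact sign-flip permutation p was 0.0156. Pooled over animals, 90.6% of members of the pos gate had a reporter read. Among the other types this was 84.3% for Rprm, Foxp2 and Ighm, 83.9% for Rorb, Dkkl1 and Coch and 82.9% for Wfs1, Calb1 and Cux2. It was 80% for Oprk1, Tesc and Blnk and lowest, at 72.5%, for Tshz2, Lypd1 and Il11ra1. No comparison by type was tested. When every cell was thinned to 100000 reads the shares were 64.3% in members and 60.0% in the others, with a difference of 4.32 points (n = 7, 4 higher, exact permutation p = 0.594). Thinning also changed which cells were members, 192 of the 212 being kept, and left Context-Only animal 4 out, so the part of depth in this loss was not told apart. With stricter members, whose score led by at least 0.5, the difference was 8.60 points and members were higher in 5 of 5 animals (exact permutation p = 0.0625, the smallest that 5 animals allow). Over all gates the share was 56.3% in members and 51.3% in the others (12 animals, 8 higher, exact permutation p = 0.157). There the stricter members gave 65.4%, against 54.3% in the others (8 animals, 6 higher, exact permutation p = 0.03125).

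**Figure D4:**
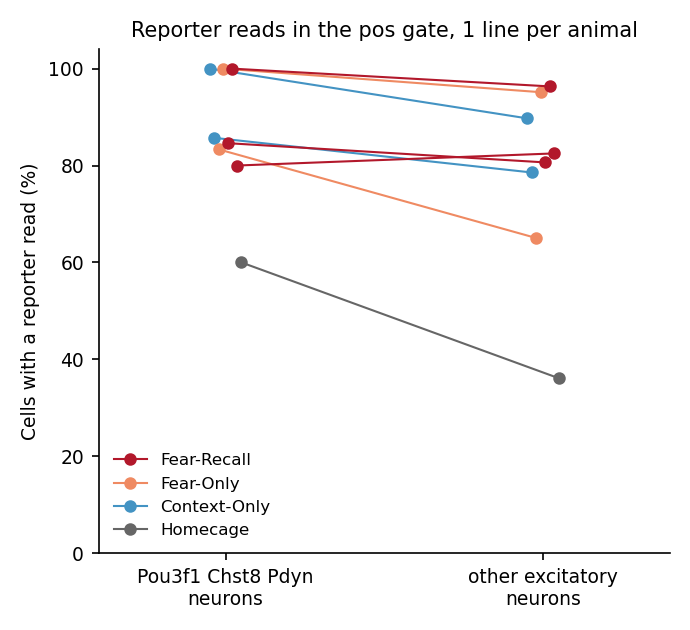
Share of cells of the pos gate with at least 1 reporter read, in Pou3f1 Chst8 Pdyn neurons (left) and in the other excitatory neurons (right) of the same animal, 1 line per animal coloured by condition. The line slopes down to the right in 7 of 8 animals, and Homecage animal 2 is lowest on both sides.

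Gene expression within the members was compared between gates in the 4 animals with at least 5 members in each, after summing their counts per animal and gate. No gene of 14466 (0%) passed an adjusted p of 0.05 in edgeR's quasi-likelihood test with the animal as a term, 386 (2.67%) had an unadjusted p under 0.05, and DESeq2 called 37, with Gadd45b, Bdnf and Nr4a1 among them. On the higher side the genes of smallest p in edgeR were these 3, all on the list of immediate early genes, and Tmed9. Gadd45b, a stress-response gene tied to DNA demethylation, stood at 57.01, 192, 88.3 and 367 CPM in the pos cells of Fear-Recall animals 2 and 3, Fear-Only animal 3 and Homecage animal 2, against 42.5, 28.8, 10.4 and 65.5 CPM in their neg cells. Its log2 fold change was 2.22 ± 0.48 (SE), with p = 0.00195 and an edgeR adjusted p of 1. Bdnf, the brain-derived neurotrophic factor, stood at 116, 489, 620 and 443 CPM in the pos cells of the same animals, against 72.6, 139, 52.7 and 103 CPM in the neg cells (log2 fold change 2.03 ± 0.45). Nr4a1, an orphan nuclear receptor, stood at 172.98, 844, 197 and 1021 CPM in pos cells, against 129, 213, 103 and 345 CPM in neg cells (log2 fold change 1.23 ± 0.29). Each of these 3 was higher in pos in 4 of 4 animals, with the smallest ratio in Fear-Recall animal 2. Tmed9, a p24-family protein of the secretory pathway, stood at 158.4, 123.7, 129.9 and 243.5 CPM in pos cells, against 78.5, 77.4, 65.3 and 116.1 CPM in neg cells, and was likewise higher in 4 of 4 (log2 fold change 0.94 ± 0.22).

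**Figure D5:**
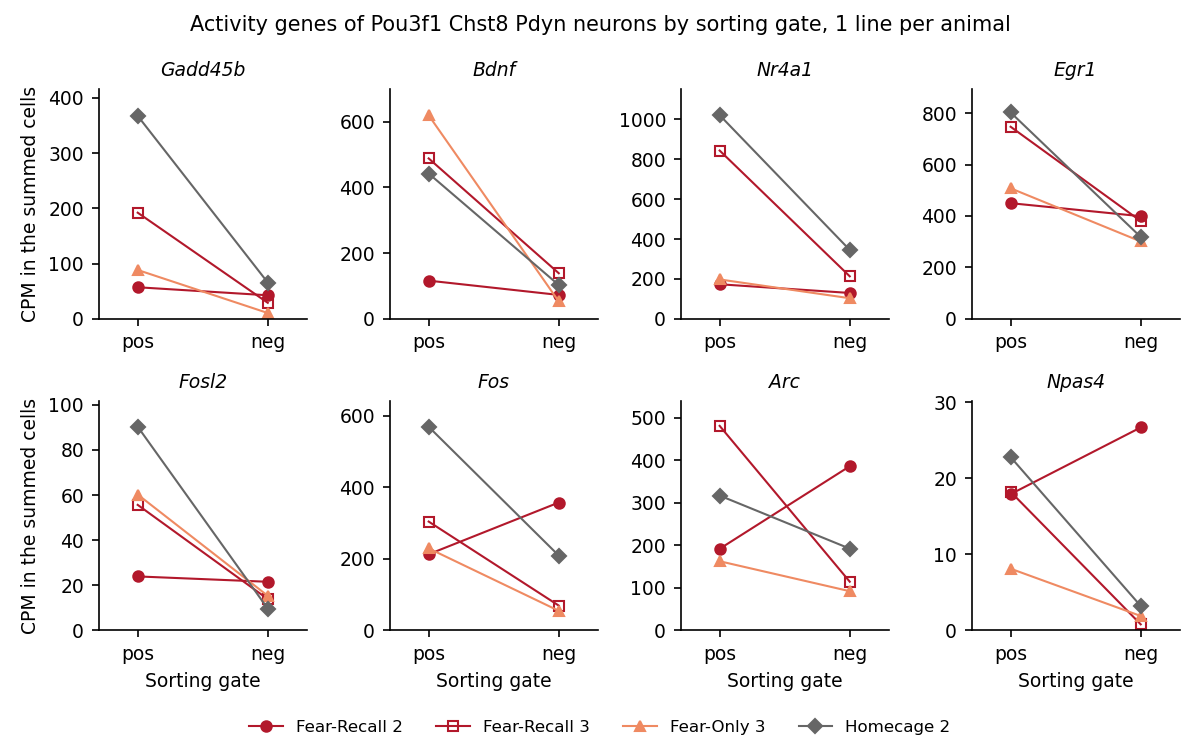
Normalised CPM of 8 activity genes in the summed Pou3f1 Chst8 Pdyn neurons of the pos gate (left) and the neg gate (right), 1 line per animal, each vertical axis starting at 0. Gadd45b, Bdnf, Nr4a1, Egr1 and Fosl2 are higher in pos in 4 of 4 animals, while Fos, Arc and Npas4 run the other way in Fear-Recall animal 2.

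The promoter windows of Nr4a1 (chr15:101266596-101266895, plus strand) and Gadd45b (chr10:80929841-80930140, plus strand) are shown. Of Gadd45b, Bdnf and Nr4a1, they are the genes with a single RefSeq start, and the starts of Tmed9 were not looked up. The Bdnf table holds 7 starts and none is printed. Capitals mark the same 5 motifs as above.
Nr4a1: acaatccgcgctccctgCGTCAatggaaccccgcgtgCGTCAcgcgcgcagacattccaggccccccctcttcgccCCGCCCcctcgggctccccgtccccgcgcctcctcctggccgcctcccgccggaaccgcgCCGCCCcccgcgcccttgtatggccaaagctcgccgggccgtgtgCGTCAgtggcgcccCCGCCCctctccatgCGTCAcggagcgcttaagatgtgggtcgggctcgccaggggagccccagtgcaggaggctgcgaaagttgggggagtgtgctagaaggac
Gadd45b: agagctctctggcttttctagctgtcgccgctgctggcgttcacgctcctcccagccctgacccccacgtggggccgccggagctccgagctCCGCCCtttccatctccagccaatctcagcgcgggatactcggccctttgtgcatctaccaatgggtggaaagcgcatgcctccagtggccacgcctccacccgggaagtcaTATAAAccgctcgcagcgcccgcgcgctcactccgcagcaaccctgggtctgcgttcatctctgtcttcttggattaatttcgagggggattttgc
The Nr4a1 window held 4 half-sites of the cAMP response element and 3 GC boxes, and the Gadd45b window 1 GC box and 1 TATA box. A half-site was found in 20.8% of all 32851 windows, a TATA box in 13.6% and the full cAMP response element in 1.79%. A match is a run of letters and not a measured binding site.

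Most immediate early genes had a positive fold change between the gates. None passed in edgeR, while DESeq2 called 4 of them higher, namely Bdnf, Gadd45b, Nr4a1 and Ptgs2, beside 31 higher calls among all 14466 genes. Of 33 genes tested, 29 had a log2 fold change above 0 with a list median of 0.83, beside 51.8% and 0.03 over all genes. Unadjusted p was under 0.05 for 8 of them, namely Gadd45b, Bdnf, Nr4a1, Egr1, Fosl2, Fos, Scg2 and Vgf. In 5 of 33 the pos cells were higher in every one of the 4 animals, against 5.05% of all genes. Fos stood at 213, 304, 229.3 and 569.5 CPM in pos cells of Fear-Recall animals 2 and 3, Fear-Only animal 3 and Homecage animal 2, against 358, 69.2, 54.6 and 209 CPM in neg cells, so Fear-Recall animal 2 ran against the other 3. In the other excitatory neurons of the same 4 animals the list median of the log2 ratio was 0.38, beside 0.82 in members, and 10 of 33 genes were higher in every animal, against 7.31% of all genes. The difference between these gate effects was fitted over 18086 genes. In that fit 0 genes (0%) passed in edgeR and 557 (3.08%) had p under 0.05. The list had 26 of 34 genes above 0 with a median of 0.49, beside 0.09 over all genes.

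On the lower side the genes of smallest p were Mal2, Gdpd1, Gria3 and Stxbp2, of which none passed. Gria3, the GluA3 subunit of AMPA receptors, stood at 213.5, 250.75, 181.5 and 151.75 CPM in pos cells, against 342, 405, 262 and 228 CPM in neg cells of the same 4 animals, with a log2 fold change of -0.62 ± 0.18. It was lower in pos in 4 of 4, as were 1092 of all 14466 genes tested. The 3 defining genes chose the cells, so their log2 fold changes between gates are given without a test, at -0.06 for Pou3f1, -0.32 for Chst8 and -0.05 for Pdyn. Markers of other cells were compared in the same sums. Microglial markers summed to between 0.142 and 25.4 CPM in pos sums and 0.467 and 7.58 CPM in neg sums, with 5 of 5 tested genes above 0. Oligodendrocyte markers summed to between 102 and 957 CPM in pos sums and 78.7 and 213.6 CPM in neg sums. Astrocyte markers summed to between 73.3 and 140 CPM in pos sums and 0.122 and 115.2 CPM in neg sums, with 6 of 6 tested genes above 0. Inhibitory markers summed to at most 3.86 CPM in any of these sums, with Gad2, Slc32a1 and Lhx6 at 0 throughout. The part of these markers in the gate result was not tested.

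Few genes passed a test between conditions in the pos gate. Fear-Recall against Context-Only, with 3 and 2 animals, gave 0 calls among 13776 genes (0%) in edgeR, 542 genes (3.93%) at an unadjusted p under 0.05, and 32 calls in DESeq2. Chst2, a sulfotransferase that acts on N-acetylglucosamine, stood at 101, 100.4 and 117.2 CPM in Fear-Recall animals 2 to 4, against 49.3 and 26.8 CPM in Context-Only animals 3 and 4 (log2 fold change 1.48 ± 0.38, p = 0.00258, edgeR adjusted p = 1). Ldlrad4, an inhibitor of TGF-beta signalling, stood at 22.5, 22.98 and 20.1 CPM in the Fear-Recall animals, against 75.3 and 64.8 CPM in the Context-Only animals (log2 fold change -1.68 ± 0.43). Both genes were picked for their small p, and neither passed. Enpp2 (autotaxin), Garnl3 and mt-Nd4 had log2 fold changes of 2.32, 1.89 and 0.90, and Tmem132a, Cyb5r1 and Mtg2 of -1.35, -1.39 and -1.74, also without passing.

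A pair of lists leaned to the Fear-Recall side in the pos gate. All 12 mitochondrially encoded genes tested had a log2 fold change above 0, with a median of 0.86, and 16 of 18 firing-related channel genes did, with a median of 0.74, beside 53.1% and 0.05 over all genes. Without Fear-Recall animal 4 the channel list had 12 of 18 above 0 and a median of 0.44. No member of either list passed. mt-Nd4 stood at 804, 660.1 and 693 CPM in the Fear-Recall animals, against 377 and 395 CPM in the Context-Only animals. The Fear-Only animals 2 and 3, at 818 and 685 CPM, lay with the Fear-Recall animals. Scn1a, the sodium channel Nav1.1, stood at 120.5, 128 and 199.5 CPM in the Fear-Recall animals, against 69.7 and 36.9 CPM in the Context-Only animals, and Scn8a (Nav1.6) at 175.85, 198.6 and 251.1 CPM, against 114.9 and 125 CPM. Kcnn3 (SK3) ran the other way, at 2.9, 1.6 and 2.3 CPM in the Fear-Recall animals, against 29.98 and 11.997 CPM in the Context-Only animals. With all gates together, which adds 4 more animals, 6 of 12 mitochondrial genes (median -0.02) and 11 of 19 channel genes (median 0.07) were above 0. Without Context-Only animal 2 these counts were 12 of 12 (median 0.44) and 14 of 19 (median 0.50). The Fear-Recall against Context-Only difference was then compared with that in the other excitatory neurons. No gene of 18014 (0%) passed in edgeR and 2.74% had an unadjusted p under 0.05, with 13 of 13 mitochondrial genes above 0 and a median of 0.45, beside 55.9% and 0.11 over all genes.

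Eno1b, an enolase retrogene on chromosome 18, was the only gene called by edgeR in the remaining pos-gate comparisons. It was called in Fear-Recall against Fear-Only (1 of 13776 genes, 0.00726%, adjusted p = 7.84e-04, with 2.8% of genes at an unadjusted p under 0.05) and in Fear-Only against Context-Only (1 of 13776, 0.00726%, adjusted p = 6.80e-04, with 3.71%). Fear-Recall animals 2 to 4 held 2926, 1302 and 594 Eno1b counts and Context-Only animals 3 and 4 held 942 and 1402, while Fear-Only animals 2 and 3 held 0. Against a floor of 3 counts over the Fear-Only group, the level was at least 699.5-fold higher in Fear-Recall. The same split ran through the whole series and was not particular to these neurons. Eno1b had reads in 90.5 to 100% of the cells of 13 animals and in 9.63 to 22.2% of the cells of the other 7, which were Fear-Only animals 1 to 4, Context-Only animal 2 and Homecage animals 2 and 3. Both Fear-Only animals in these sums belong to the second set and all Fear-Recall animals to the first, so condition and set cannot be told apart there. In Fear-Only against Context-Only the sets likewise run with the conditions. Eno1b is a near copy of Eno1, and how the authors' counting treated reads that match both is not known, so its counts are uncertain. The cause of the split between animals was not tested.

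A single Fear-Only animal stood far above the rest for Pdyn, which is described without a test because it chose the cells. In the pos gate it stood at 24.8, 91.4 and 47.3 CPM in Fear-Recall animals 2 to 4, against 577 and 53.8 CPM in Fear-Only animals 2 and 3 and 30.6 and 30.5 CPM in Context-Only animals 3 and 4. The log2 fold change was -2.53 for Fear-Recall against Fear-Only and 0.01 without Fear-Only animal 2. Hddc3, a metal-dependent phosphohydrolase, was at 19.4, 14.7 and 12.4 CPM in Fear-Recall animals, against 125 and 73.6 CPM in Fear-Only animals, and did not pass (log2 fold change -2.68 ± 0.51). The other 2 defining genes had log2 fold changes from -0.57 to -0.26 for Chst8 and from 0.32 to 1.21 for Pou3f1 over the pos-gate comparisons, likewise without a test. DESeq2 called 7 genes for Fear-Recall against Fear-Only and 20 for Fear-Only against Context-Only, with Chst2 among these 20.

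With all gates together 12 animals had at least 5 members, and edgeR called 0 of 16968 genes (0%) in each of 4 comparisons. For Fear-Recall against Context-Only, 1247 genes (7.35%) had an unadjusted p under 0.05 and DESeq2 called 25. For Fear-Recall against Fear-Only these were 541 (3.19%) and 19, for Fear-Only against Context-Only 691 (4.07%) and 25, and for Fear-Recall against Homecage 1257 (7.41%) and 317. The last rests on 1 Homecage animal, whose spread was assumed to be that of the other conditions. Hn1, a microtubule-associated protein, stood at 172, 241.4, 187.2, 228 and 171.3 CPM in the Fear-Recall animals, against 358, 319, 344 and 362.5 CPM in the Context-Only animals (log2 fold change -0.79 ± 0.21, p = 0.00177, edgeR adjusted p = 0.660). Il34, a ligand of the CSF1 receptor, stood at 126, 108.25, 76.7, 67.9 and 107 CPM in the Fear-Recall animals, against 204.2, 157.7, 202.04 and 191 CPM in the Context-Only animals. Hn1 and Il34 were picked for their small p, and neither passed. Slc4a8, a sodium-driven bicarbonate exchanger, had a log2 fold change of 1.55 and Golga4, a golgin, of 1.42. Against Homecage animal 2 the genes of smallest p were Atp1b2, Sstr2, Atad1 and Yars on the higher side and Lsm10, Eif3i, Rabepk and Snn on the lower side. Atp1b2, a subunit of the sodium pump, stood at 84.2, 77.7, 30.3, 18.9 and 100.7 CPM in the Fear-Recall animals, against 0.700 CPM in Homecage animal 2. Lsm10, a protein of the U7 ribonucleoprotein, stood at 14.7, 17.01, 19.6, 5.27 and 15.6 CPM in the Fear-Recall animals, against 167.1 CPM in Homecage animal 2. None of these genes passed, and the median log2 fold change over all genes in that comparison was 0.37. Homecage animal 2 belongs to the set of animals with few Eno1b reads and all Fear-Recall animals to the other set, so condition, set and the single animal cannot be told apart there.

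Markers of other cell types were summed in the same libraries. Microglial markers summed to between 0 and 4.30 CPM in 5 Fear-Recall sums, 13.4 and 19.9 CPM in Fear-Only sums and 0.129 and 152.1 CPM in 4 Context-Only sums, and 0 of 8 were above 0 in Fear-Recall against Context-Only. Oligodendrocyte markers summed to between 68.98 and 147.03 CPM in Fear-Recall, 191 and 648 CPM in Fear-Only and 117.9 and 954 CPM in Context-Only sums. Inhibitory markers stayed at or below 4.31 CPM in every sum. The part of these transcripts in the differences between conditions was not tested. Of the 3 defining genes, Pdyn stood at 83.9, 34.3, 74.9, 47.04 and 89.2 CPM in the Fear-Recall animals, against 18.9, 43.9, 39.8 and 26.3 CPM in the Context-Only animals (log2 fold change 1.03, with no test of a gene that chose the cells). These ranges overlap. Chst8 and Pou3f1 had log2 fold changes of -0.19 and 0.36 in the same comparison.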

How the data were processed

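The deposited table holds the authors' raw read counts per gene and cell, with no normalization, for 3530 cells of 20 animals. Each sample is 1 cell, and the replicate is the animal. Per the submitters' processing notes, Bowtie 0.12.2 was used and the builds mm8 and mm10 are named. The sources used here do not name a counting tool. Reads of the reporter were left out of library sizes and tests, leaving 23354 of 23355 genes. No doublet caller was run, and no 2 cells held identical counts.

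Members were found from CPM as the report describes. Counts were summed per animal (and gate) where at least 5 members were present, giving sums of 4791849 to 34348785 counts. edgeR 4.0.16 (quasi-likelihood test, TMM, filterByExpr with a minimum count of 10 and total of 15, Benjamini-Hochberg adjusted p of 0.05) in R 4.3.3 was the test; DESeq2 1.42.0 was an alternative. CPM printed beside an edgeR fold change is TMM-normalised, and other CPM is scaled to the total of the sum. Ratios against other excitatory neurons used a pseudocount of 1, a mean of at least 30 CPM, a median of 2-fold and the same side in 90% of animals. Shares were compared by exact permutation tests over animals with Python 3.11.15 and scipy 1.17.1, with exact 95% binomial intervals. The fits were tested on simulated data with 200 changed genes. Between gates, 10% of 2-fold and 68% of 4-fold changes were recovered. For Fear-Recall against Context-Only these were 3 and 45% in the pos gate and 6 and 65% with all gates. Most 2-fold changes would therefore go uncalled, and 0 calls do not mean that no gene changed. Nothing in the labels says whether animals were handled separately throughout, so p-values measure the spread between these animals.

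Genes were named by rule. For a tested comparison these were the 12 largest rises and falls among genes past the threshold whose mean log2 CPM reached 5, or, where none passed, the 4 of smallest p in each direction, plus members of the lists described. Against other excitatory neurons they were the 15 largest and 10 smallest median ratios outside the rule genes, and predicted genes were counted but not named. Some genes that the rule names are not reported here. The 23 gene lists held 248 genes, of which 3 were not in the table. The members and lists were chosen with earlier results of these data known. Gene positions come from GENCODE vM21 (GRCm38) and promoter sequences from RefSeq (GRCm38.p6), and the deposited table rests on neither. Whether replicate numbers pair the samples was not settled, and the main comparisons between conditions did not use them. Alternatives were other normalization, no filter, DESeq2, at least 10 cells per sum, a lead of at least 0.5 for members (the stricter members, 123 cells), thinning to 100000 reads, a pseudocount of 10, the mouse number as a block and leaving out each animal.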

Additional observations from a re-analysis of the deposited data

Results flagged for a closer look

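Pou3f1 in the summed Pou3f1 Chst8 Pdyn neurons of Fear-Recall animal 4 stood at 108.3 CPM, far from the nearest other Fear-Recall animal at 34.3 CPM. That sum rests on 5 cells, and Pou3f1 is a gene that chose them. Among 28 groups examined this was the 1 value so far from the rest, and chance gives about 1 in 20 groups.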

How the results depend on the processing

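Of 1348 values recomputed under alternatives, 1267 kept their direction and side of the threshold. With the stricter members 35 genes were higher and 75 lower than in other excitatory neurons, and with a pseudocount of 10 these were 13 and 26; leaving out animals gave 17 to 25 higher and 43 to 56 lower. DESeq2 called 37 genes between the gates, 32, 7 and 20 in the pos gate (Fear-Recall against Context-Only, Fear-Recall against Fear-Only, Fear-Only against Context-Only) and 25, 19 and 25 with all gates, and 317 against Homecage. Without a filter edgeR called 5, 14 and 29 in the pos gate. With at least 10 cells per sum it called 0 for Fear-Recall against Fear-Only in the pos gate, and 1 (Fear-Recall against Fear-Only), 1 (Fear-Only against Context-Only) and 3 (against Homecage) with all gates; the other pos-gate comparisons gave no value. The stricter members gave 1, 1 and 6. Leaving out animals gave 0 to 1 calls for Fear-Recall against Context-Only (1 without Context-Only animal 3), 1 to 2 for the other pos-gate comparisons (2 without Fear-Only animal 3, and 2 without Context-Only animal 3) and 0 to 1 for Fear-Only against Context-Only with all gates (1 without Context-Only animal 2). The causes were not tested.

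The reporter difference in the pos gate was 8.60 points with the stricter members, where 5 animals could not pass the threshold (exact permutation p = 0.0625, the smallest possible), 4.32 and no longer past it when thinned, and 6.53 to 10.3 without single animals. Over all gates it was 11.1 with the stricter members and 3.54 to 7.15 without single animals, past the threshold with the stricter members and without Fear-Recall animal 5 (7.15). The share by gate reversed to -0.802 when thinned and ran from -0.221 to 1.01 without single animals. The share of Fear-Only against Context-Only reversed to 0.203 with the stricter members and ran from -1.46 to 0.605 over all gates and from -1.57 to 5.65 in the pos gate; Fear-Recall against Fear-Only ran from -3.10 to 4.13 in the pos gate. Mal2 reversed to 0.00227 between gates and Snn to 0.0851 against Homecage with the stricter members. Pdyn for Fear-Recall against Fear-Only in the pos gate reversed to 0.124 with at least 10 cells and ran from -3.41 to 0.00915 without single animals.

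The replicate block gave 0 calls for Fear-Recall against Context-Only and 1 for Fear-Recall against Fear-Only and for Fear-Only against Context-Only in the pos gate (Eno1b, adjusted p = 0.0117 in the first of these by edgeR), and 0 with all gates; the gate fit with no replicate block gave 0. Samples with the same mouse number correlated between -0.0329 and 0.0971 with all gates (median 0.0546). In the pos gate they correlated between 0.00065 and 0.136 (median 0.0676). Samples with different numbers correlated between -0.0913 and 0.134 with all gates (median -0.0305). In the pos gate these ran from -0.136 to 0.0993 (median -0.0236). The medians were higher for the same number but the ranges overlapped, so whether the numbers pair the samples was not settled. Paired by number, the share in Fear-Recall exceeded that in Fear-Only by 5.43 points in 5 of 5 (exact sign-flip permutation p = 0.0625, the smallest possible). The sums held 5 to 38 cells each, from 1 to 5 animals a condition.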
